A study of Homo sapiens with 4 samples.

Results

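The comparison set RNA from HuCCT1 cells given VPA against RNA from untreated HuCCT1 cells. It used 2 of the series' 4 arrays, those titled for VPA alone and for no treatment, with 1 array on each side. HuCCT1 is an established human cell line from cholangiocarcinoma, a cancer of the bile duct epithelium. The label VPA is read here as valproic acid and the label GEM as gemcitabine. The other arrays carried cells given GEM alone (GEM) and cells given both agents (GEM_VPA), and their values stand beside many of the gene results. All 4 groups were the same line with no genetic change named in the labels. No source used here gives the dose, the exposure time, the vehicle or the culture behind each array. RNA was measured on Affymetrix Human Gene 1.0 ST arrays, whose probes lie along the exons of each transcript.

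Valproic acid is a branched fatty acid used against epilepsy and bipolar disorder. It inhibits some of the zinc-dependent histone deacetylases, enzymes that remove acetyl groups from histone tails and from many other proteins. Their inhibition leaves chromatin more acetylated, and in cancer cells it is known to arrest the cell cycle and to switch on genes of differentiated or unrelated cell types. HLA class II genes, adhesion genes and neuronal genes are among those known to respond in tumour lines.

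The deposited values were log2 intensities, and a log2 ratio below is the VPA value minus the untreated value. Of 18377 genes with a row of their own, 11611 had their higher value at or above the median of that array, which was 7.87 on the untreated array and 7.92 on the VPA array. A gene was counted as higher or lower when it was also at least 2-fold apart, the authors' own limits for the ratio. By that rule 221 genes were higher with VPA (1.90% of those at level) and 243 were lower (2.09%), 464 in all (4.00%). These shares are the background for every list count below, and only list members at level could be called. Higher genes made up 47.6% of the calls, 38.7% when each array was first centred on its median and 58.4% when the arrays were quantile-normalized again. At a 1.5-fold limit 1973 genes were apart (17.0%), 771 higher (6.64%) and 1202 lower (10.4%), and at a 3-fold limit 71 (0.611%), 56 higher (0.482%) and 15 lower (0.129%). Both values reached their array's median in 166 of the higher and 210 of the lower genes, and the rest passed through 1 array only. Of genes named below, APOD, CEACAM1, CHRNA6, CNTN1, EDN1, GRHL3, IL1RN, KRT20 and OAS1 passed through the VPA array only. So did PSG4, SELENOP, SERPINB7, SLC2A12, SLPI, SPP1, TCN1 and TMPRSS11E. TNFSF18, MIR17HG and H2AC14 passed through the untreated array only. These calls are lost when both values must reach the median. The median log2 ratio over all 18377 genes was -0.01. Higher calls were more frequent among weak genes: split by mean level into 4 equal bands, the lowest band held 61 higher and 41 lower and the highest band 39 higher and 53 lower. With no second culture on either side, no difference here has a replicate check, a standard error or a p-value. Having so few arrays limits how precise each value is.

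The arrays paired in a way their titles do not describe. Over all rows the untreated and GEM_VPA arrays correlated at r = 0.996 and the VPA and GEM arrays at r = 0.996, while the other pairs lay between 0.984 and 0.987. Only 17 genes were 2-fold apart between GEM_VPA and untreated (0.148%) and 35 between VPA and GEM (0.305%), against 521 between GEM and untreated (4.49%) and the 464 above. GEM over untreated shares the untreated array with the VPA comparison, so its values are given side by side and support nothing. Several list medians were close in both comparisons. With GEM they were -0.64 for nuclear envelope and pore and -0.61 for RNA export and splicing. They were 0.21 for interferon-stimulated genes and -1.34 for the cell cycle reference. With VPA these were -0.55, -0.67, 0.24 and -1.08. Genes known to respond to deacetylase inhibitors had list medians of 0.15 with GEM and 0.45 with VPA. Taken gene by gene, however, their median log2 difference of VPA minus GEM was only 0.06. The same measure was 0.26 for the cell cycle reference and 0.07 for nuclear envelope and pore. Array identity was taken from the titles and was not tested. Where 4 log2 levels follow a gene below, they stand in the order untreated, VPA, GEM and GEM_VPA. Levels are not compared between genes, except that uncalled list members were picked by highest level.

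The epithelial identity of the line was visible on every array. All 7 measured bile duct markers were at level, among them EPCAM, a surface adhesion protein (12.83, 12.68, 12.63 and 12.84), and KRT19, a biliary keratin (13.08, 13.58, 13.68 and 12.94). Their log2 levels summed to 84.7 on the untreated array and 89.3 on the VPA array. Of 11 leukocyte markers only CD68, a lysosomal protein also made by epithelial cells, and NKG7 were at level, and PTPRC, the pan-leukocyte phosphatase, stood at 5.27, 5.34, 5.23 and 5.21, below the 25th percentile of both arrays (6.42 and 6.44). Fibroblast, endothelial and hepatocyte lists had 1 of 9, 2 of 7 and 2 of 8 markers at level. None of these 4 lists held a gene called 2-fold apart. In bulk RNA, fewer cells of a kind and less RNA per cell cannot be told apart.

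Several HLA class II genes were higher with VPA. These genes encode the paired chains that display peptides to CD4+ T cells, and the chaperones that load them. HLA-DPA1, an alpha chain, had levels of 7.27, 9.26, 8.44 and 7.63, and was 3.99-fold higher with VPA. HLA-DPB1, its partner beta chain, measured 7.24, 9.12, 7.72 and 7.85, a 3.69-fold difference. HLA-DOB, which modulates peptide loading, stood at 6.90, 8.72, 8.07 and 7.22 and was 3.54-fold higher. In all 3 genes the VPA array was the highest of the 4 and the untreated array the lowest. All 3 lay under the median of the untreated array, so they passed the level limit only through the VPA array and lose the call when both values must reach it. HLA-DMA, a chain of the peptide-loading chaperone, was 2.88-fold higher (8.86, 10.39, 9.39 and 9.08), again with the VPA array on top.

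The HLA-DR genes could not be named singly, because each of their 7 rows is annotated to at least 1 DR gene and to a DQ gene. Of these rows 6 were at level, and each of the 6 was at least 2-fold higher with VPA. The 3 of them annotated to HLA-DRA, the alpha chain, and HLA-DQA1 had log2 ratios of 2.47 to 2.73, and the 3 annotated to DR beta chain genes and HLA-DQB1 had 2.84 to 3.14. Their levels ran from 8.01 to 8.72 on the untreated array and from 10.48 to 11.70 on the VPA array, with no overlap. In each row the GEM and GEM_VPA arrays lay between these, at 9.32 to 10.60 and at 9.24 to 9.54 over the 6 rows. Rows with the same annotation are not independent measurements. Of 7 distinct rows shared by HLA-DQ genes 3 were at level, and 1 was called, with a log2 ratio of 1.22.

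Other class II genes moved less, and the following were chosen after their values were seen. HLA-DMB, the partner of HLA-DMA, had a log2 ratio of 0.63 (7.55, 8.18, 7.91 and 7.94), and HLA-DOA, the partner of HLA-DOB, one of 0.31. CIITA, the transactivator through which class II genes are usually switched on, measured 7.82, 7.84, 7.77 and 7.87, a log2 ratio of 0.02, and lay under the median of both arrays compared. The leukocyte markers summed to 79.8 log2 units on the untreated array and 81.5 on the VPA array. Their part in the class II result was not tested.

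Class I presentation differed by less than 2-fold. B2M, the light chain of every class I molecule, had levels of 11.35, 11.91, 11.87 and 11.24, a log2 ratio of 0.56. The 6 rows shared by class I heavy chains had log2 ratios of 0.56 to 0.80. CD274, the checkpoint ligand PD-L1, was 2.33-fold higher (7.19, 8.41, 7.25 and 7.50), with the other 3 arrays within 0.31 of each other. RAET1L, a stress ligand seen by natural killer cells, was 2.19-fold higher (9.55, 10.69, 10.51 and 9.75). Of the 27 measured genes of antigen presentation and immune ligands, 21 were at level, 6 were called higher and none lower, and the median log2 ratio of all 27 was 0.27. Of the 6 calls, those of HLA-DPA1, HLA-DPB1, HLA-DOB and CD274 met the level limit only through the VPA array. They are lost when both values must reach it. The plot of class II levels shows each array.

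**Figure D1:**
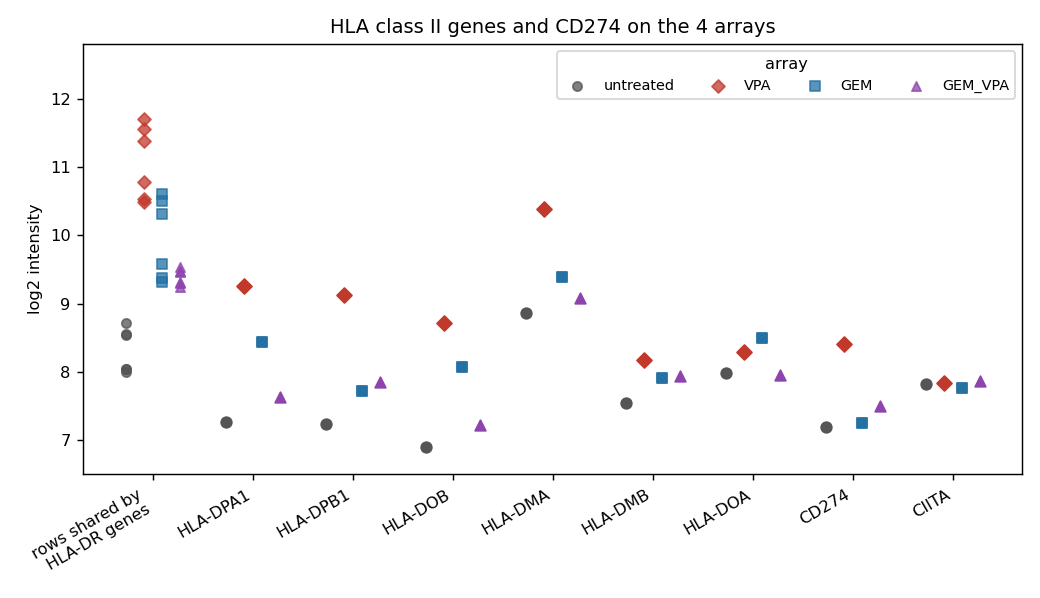
Log2 intensity of HLA class II genes, CD274 and CIITA on the 4 arrays (1 point per gene and array) and of the 6 rows shared by HLA-DR genes that were at level (1 point per row). The VPA array is the highest for HLA-DPA1, HLA-DPB1, HLA-DOB and HLA-DMA, and CIITA lies at 7.77 to 7.87 on every array.

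The promoters of 3 of these genes are printed because class II promoters are known for a shared block of boxes, one of which, the Y box, is an inverted CCAAT. They are RefSeq sequences of GRCh38.p14, the 250 bases before the annotated start, read 5′ to 3′ on the gene's strand, at chr6:32953098-32953347 (minus strand) for HLA-DMA, chr6:32817003-32817252 (minus) for HLA-DOB and chr6:33075740-33075989 (plus) for HLA-DPB1. Capitals mark a match on either strand to any of 8 motifs: the GC box GGGCGG, the CCAAT box, the motif GATTGG (an inverted CCAAT box with a leading G, so each match also holds a CCAAT match), the cell cycle homology motif TTTGAA, the AP-1 type motif TGANTCA, the CREB type motif TGACGT, the TEAD type motif CATTCC and the TATA box TATAAA.
HLA-DMA: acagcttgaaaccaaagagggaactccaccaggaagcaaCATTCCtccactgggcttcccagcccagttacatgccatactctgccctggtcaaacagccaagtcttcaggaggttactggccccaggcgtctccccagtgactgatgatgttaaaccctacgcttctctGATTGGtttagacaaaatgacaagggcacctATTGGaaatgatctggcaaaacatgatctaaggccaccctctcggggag
HLA-DOB: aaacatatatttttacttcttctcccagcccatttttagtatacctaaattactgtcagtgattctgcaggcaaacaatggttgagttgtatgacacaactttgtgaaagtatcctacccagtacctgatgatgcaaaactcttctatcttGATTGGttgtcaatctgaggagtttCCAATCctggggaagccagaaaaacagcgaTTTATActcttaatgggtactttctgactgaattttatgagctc
HLA-DPB1: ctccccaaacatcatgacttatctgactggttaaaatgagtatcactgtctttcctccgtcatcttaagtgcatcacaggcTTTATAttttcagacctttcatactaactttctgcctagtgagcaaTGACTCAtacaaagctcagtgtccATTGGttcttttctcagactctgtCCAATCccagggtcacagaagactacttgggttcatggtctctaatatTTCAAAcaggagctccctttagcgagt
GATTGG on either strand began 80 bases before the start in HLA-DMA, 99 and 74 bases before it in HLA-DOB, and 75 bases before it in HLA-DPB1. HLA-DPB1 also held a match to the AP-1 type motif 123 bases before the start. GATTGG was present in the 300-base window (250 before and 50 after the start) of 15.7% of all 27305 promoters, so a match is a description of these letters and not a binding site.

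Interferon-stimulated genes of the antiviral response were partly higher. IFI6, an antiviral mitochondrial and ER protein, was 6.39-fold higher (10.31, 12.99, 12.33 and 10.50), SAMD9, a restriction factor, 3.71-fold (8.36, 10.25, 9.95 and 8.80) and RIGI, a sensor of viral RNA, 2.12-fold (8.72, 9.80, 9.83 and 8.68). OAS1, which makes the activator of RNase L, was at the limit with a log2 ratio of 1.00. All 4 were also higher on the GEM array than on the untreated array. Of 38 measured genes 23 were at level, 4 were higher, none lower, and 32 lay above 0, with a median of 0.24. IFITM3, the uncalled member with the highest level, had a log2 ratio of 0.49.

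A minority of matrix and integrin genes were higher with VPA and none was lower. FN1, the fibronectin that cells spread on, measured 8.82, 11.52, 10.90 and 9.95, and was 6.53-fold higher. TGM2, the transglutaminase that cross-links matrix proteins, measured 10.90, 13.52, 12.96 and 12.11, a 6.16-fold difference. ITGA2, the alpha chain of a collagen-binding integrin, stood at 10.51, 12.22, 11.69 and 11.55, a 3.26-fold difference. For all 3 the VPA array was the highest and the untreated array the lowest, and the GEM_VPA array lay 1.04 to 1.21 above the untreated one. The laminin chains LAMB3 and LAMB2, parts of the basement membrane, were 2.90-fold (9.81, 11.35, 11.01 and 10.31) and 2.46-fold (9.41, 10.71, 10.53 and 9.47) higher. THBS1, a matrix glycoprotein, and COL12A1, a fibril-associated collagen, had log2 ratios of 1.09 and 1.01.

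Of 41 measured matrix genes 21 were at level, 7 were higher and none lower, with 30 above 0 and a median of 0.19. LAMC1, LAMA5 and COL6A1, the uncalled members with the highest levels, had log2 ratios of 0.71, 0.61 and 0.28. Of 25 integrins 11 were at level, and ITGA2 alone was called. Of the 25, 19 lay above 0, including ITGA3 at 0.62 and ITGB4 at 0.61, chains that bind laminin. The fibroblast markers COL1A2, COL3A1 and LUM had log2 ratios of -0.07, -0.09 and -0.02. Of 69 genes for matrix proteases and their inhibitors 28 were at level, and only SERPINB5, the maspin of epithelial cells, was called (2.47-fold higher). Over all genes at level 1.90% were called higher.

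SPP1, the secreted phosphoprotein osteopontin, had a pattern of its own among the matrix genes. It measured 7.65, 8.91, 7.28 and 9.13, so that it was 2.39-fold higher with VPA and lowest on the GEM array. The GEM_VPA array was the highest of the 4.

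ANKRD1, CCN1 and CCN2, standard readouts of the YAP and TEAD transcription complex, were all higher. ANKRD1, an ankyrin repeat protein of stretched muscle, measured 7.07, 10.32, 8.57 and 6.91, a 9.54-fold difference. CCN1, a matricellular ligand of integrins, was 3.66-fold higher (9.66, 11.53, 10.93 and 9.96). CCN2, its relative, known as connective tissue growth factor, was 2.21-fold higher (9.76, 10.91, 9.91 and 10.30), and stood within 0.15 of the untreated array on the GEM array. Of 28 measured YAP and TEAD genes 26 were at level, 3 were higher, none lower, 23 lay above 0, and the median was 0.21. YAP1 itself had a log2 ratio of 0.11. Among cytoskeletal genes, ACTA2, smooth muscle actin, was 3.04-fold higher (9.04, 10.65, 10.60 and 9.02). ACTBL2 was 6.03-fold higher (6.34, 8.93, 8.37 and 6.61), but its untreated value lay below the 25th percentile of that array. Of 27 measured genes on this list 22 were at level, these 2 were higher and none lower, and the median was 0.08. The abundant actins ACTB and ACTG1 had log2 ratios of 0.08 and -0.03. IQGAP2, a cytoskeletal scaffold protein best known from the liver, was the second largest increase of all genes, 12.7-fold, with levels of 7.04, 10.70, 9.24 and 8.45. ANKRD1 and IQGAP2 lay under the median of the untreated array and lose the call when both values must reach it.

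The promoters of FN1 (chr2:215436069-215436318, minus strand) and ANKRD1 (chr10:90921088-90921337, minus strand) are shown because both genes were among the 40 largest increases and the motifs in their promoters differ.
FN1: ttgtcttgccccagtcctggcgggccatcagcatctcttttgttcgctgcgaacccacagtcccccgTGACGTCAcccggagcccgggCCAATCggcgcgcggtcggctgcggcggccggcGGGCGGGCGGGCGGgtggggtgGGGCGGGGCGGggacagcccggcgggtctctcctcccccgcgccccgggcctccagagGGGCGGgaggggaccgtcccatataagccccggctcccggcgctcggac
ANKRD1: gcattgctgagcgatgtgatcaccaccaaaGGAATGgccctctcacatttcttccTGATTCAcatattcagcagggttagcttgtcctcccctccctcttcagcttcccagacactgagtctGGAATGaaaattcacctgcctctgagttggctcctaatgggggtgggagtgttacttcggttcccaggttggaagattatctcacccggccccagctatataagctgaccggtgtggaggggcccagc
FN1 held 6 GC box matches and a CREB type match on each strand, 183 and 181 bases before the start. ANKRD1 held no GC box match in this window, and it had TEAD type matches 220 and 128 bases before the start and an AP-1 type match 195 bases before it. CATTCC was present in 14.0% of all 27305 promoters, TGACGT in 8.32% and GGGCGG in 44.6%.

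The largest increase of all was in KRTAP3-1, a keratin-associated gene of hair, and rows shared by related genes were also higher. KRTAP3-1, a matrix protein of the hair cortex, measured 9.12, 13.60, 13.59 and 9.32. The VPA and GEM arrays were alike in it, and so were the other two. The 3 distinct rows shared by KRTAP2 genes were 4.29-fold to 4.62-fold higher, with 11.45 to 11.99 on the untreated array and 13.55 to 14.19 on the VPA array. Of 8 distinct rows shared by KRTAP4 genes 7 were at level, and all 7 were 2-fold higher. KRTAP4-4, which has a row of its own, was 2.27-fold higher. Rows of this family share sequence and can share transcripts. Of 67 keratin-associated genes with rows of their own 28 were at level, 2 were higher and none lower, with a median of 0.15. Most members of 3 other lists of genes usually silent in epithelium were below the level limit and could not be called: 7 of 359 olfactory receptors, 6 of 40 cancer-testis genes and none of 18 protocadherins were at level.

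The promoter of KRTAP3-1 (chr17:41009129-41009378, minus strand) is printed as that of the largest increase.
KRTAP3-1: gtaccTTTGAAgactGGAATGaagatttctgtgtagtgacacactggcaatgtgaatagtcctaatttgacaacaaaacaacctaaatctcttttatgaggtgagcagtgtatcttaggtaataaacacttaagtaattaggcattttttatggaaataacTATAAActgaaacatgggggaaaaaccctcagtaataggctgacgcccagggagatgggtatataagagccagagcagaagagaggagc
It held matches to the TATA box motif 89, the TEAD type motif 235 and the cell cycle homology motif 245 bases before the start, and none to the GC box. TATAAA was present in 11.95% of all 27305 promoters and TTTGAA in 15.4%.

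A few epithelial keratins and secreted or surface proteins of mucosa were also higher. KRT7, the simple-epithelium keratin of bile ducts, was 3.91-fold higher (9.53, 11.50, 11.14 and 8.93), KRT20, an intestinal and urothelial keratin, 2.39-fold (7.41, 8.67, 8.39 and 6.84) and KRT80 2.14-fold. The GEM_VPA array was below the untreated array in all 3. Of 48 measured keratins 14 were at level, 3 were higher, none lower and 14 lay below 0, with a median of 0.07. KRT8, KRT18 and KRT19, which were not called, had log2 ratios of 0.41, 0.39 and 0.51. SLPI, a secreted protease inhibitor, measured 7.52, 9.53, 8.84 and 7.72, a 4.03-fold difference, and CEACAM1, an adhesion receptor, 7.86, 9.90, 10.45 and 7.75, a 4.12-fold difference. FXYD3, a regulator of the sodium pump, was 3.65-fold higher, KLK5, a serine protease of skin, 2.38-fold, and LCN2, an iron-scavenging lipocalin, 2.06-fold. LCN2 and KLK5 were higher still on the GEM array (8.81, 9.86, 11.22 and 8.21 and 9.28, 10.53, 11.34 and 8.91). Of 53 measured genes of mucosal secretion and defence 15 were at level, 6 were higher, none lower and 43 lay above 0, with a median of 0.13.

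Differentiation regulators were mixed. SNAI2, a repressor of epithelial genes, measured 8.74, 9.86, 9.41 and 10.04, a 2.18-fold difference, and GRHL3, an activator of epidermal barrier genes, differed 2.41-fold, with the VPA array the highest of the 4. CDH1, E-cadherin, was below the limit, with a log2 ratio of 0.86. Of 47 genes of cell junctions none was called, and their median was 0.08. CD24, a surface glycoprotein of progenitor cells, was 3.36-fold higher (7.97, 9.71, 8.97 and 8.69).

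Neuronal genes were higher in single cases. MAP2, a microtubule protein of dendrites, was 4.78-fold higher (8.12, 10.38, 9.71 and 8.91), CNTN1, a neuronal adhesion molecule, 4.74-fold (7.21, 9.46, 8.17 and 8.79), and L1CAM, another, 2.88-fold (8.03, 9.56, 9.73 and 8.45). The tubulins TUBA1A and TUBB4A, both abundant in neurons, were 2.41-fold and 2.19-fold higher, and TUBE1, a centriolar tubulin, had a log2 ratio of -1.14. Of 35 measured neuronal genes 13 were at level and 3 were called, and their median was 0.02. Over the 13 at level it was 0.28, beside -0.05 for all genes at level. A gene can reach the level limit through the VPA array alone, as CNTN1 did. The higher median of the genes at level is therefore partly built in and supports nothing. SYT1, the calcium sensor of synaptic vesicles and the uncalled member with the highest level, had a log2 ratio of -0.21.

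Some glucose carriers and their regulators were higher. SLC2A3, a high-affinity glucose transporter, measured 10.20, 12.76, 12.16 and 10.19, a 5.89-fold difference. SLC2A14, its close paralog, was 4.49-fold higher (8.34, 10.51, 10.06 and 8.76), but near-identical sequence means that probes of either gene can read the other. ARRDC4, an arrestin that brings glucose carriers into the cell, was 4.96-fold higher (7.97, 10.29, 10.75 and 8.01). MLXIPL, the carbohydrate-responsive factor ChREBP that drives ARRDC4, was 2.06-fold higher, and SLC2A12 2.24-fold. SLC2A1, the main basal carrier, was just under the limit with a log2 ratio of 0.93. Of 20 genes of glucose transport and its arrestins 16 were at level and 5 were higher, beside 1.90% of all genes at level. None was lower, 8 lay below 0, and the median was 0.10. Of 24 glycolytic enzymes none was called (median -0.05), and GAPDH had a log2 ratio of -0.05.

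A few carriers of vitamin B12 and folate were higher while a folate enzyme was lower. TCN1, a secreted B12 binder, measured 7.09, 9.73, 8.96 and 7.21, a 6.22-fold difference. TCN2, which delivers B12 to cells, was 2.86-fold higher (7.95, 9.47, 9.18 and 7.87), and FOLR1, the high-affinity folate receptor, 3.64-fold (8.79, 10.65, 10.01 and 9.20). MTHFD1L, the mitochondrial enzyme that releases formate, was 2.54-fold lower (10.69, 9.35, 9.95 and 10.57). MTHFD2, which acts just before it, was under the limit at -0.91. Of 33 measured genes 26 were at level, 3 were higher and 1 lower, and the median of -0.08 had the opposite sign to the largest ratios.

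Some genes of amino acid supply were lower. SLC7A11, the cystine importer that feeds glutathione synthesis, measured 10.93, 8.64, 8.66 and 11.01, and was 4.90-fold lower with VPA. SLC7A2, a carrier of arginine and lysine, was 2.96-fold lower (9.61, 8.05, 7.80 and 9.74), ASNS, which makes asparagine, 2.39-fold (10.48, 9.23, 9.14 and 10.30), and PSAT1, a serine synthesis enzyme, 2.30-fold (11.97, 10.77, 10.85 and 11.53). In each the untreated and GEM_VPA arrays were high and the VPA and GEM arrays low. PHGDH, the first serine synthesis enzyme, had a log2 ratio of -0.63, and ATF4, the factor behind many of these genes, one of -0.08. GDF15, a stress cytokine on the same list, was 2.44-fold higher (12.10, 13.38, 13.60 and 11.73). Of 19 serine and ATF4 genes 16 were at level, 1 was higher and 2 lower (median -0.40). Of 32 amino acid carriers 24 were at level and 2 were lower, beside the 2.09% of all genes, with 14 above 0 and a median of -0.07. Of 19 cytosolic tRNA synthetases none was called and 16 lay below 0 (median -0.33).

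Sterol genes split. INSIG1, which holds the SREBP factors in the ER when sterol is plentiful, was 2.90-fold lower (10.73, 9.19, 8.78 and 10.49). TM7SF2, a sterol reductase, was 2.08-fold higher (9.34, 10.40, 10.47 and 9.21). The other 17 of 19 cholesterol genes were not called. Among 38 genes of fatty acid oxidation, the route by which valproic acid itself is partly broken down, ANGPTL4, an inhibitor of lipoprotein lipase, was at the limit with a log2 ratio of 1.00, and no other was called. Of these 38 genes 32 were at level, and 1.90% of all genes at level were called higher. None of 18 genes of drug conjugation was called, and 6 of them were at level.

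Autophagy genes were higher in 2 cases. GABARAPL1, an ATG8 protein of the autophagosome membrane, measured 10.59, 11.97, 11.70 and 10.86, a 2.60-fold difference, and WIPI1, which marks the forming membrane, 10.65, 11.78, 11.39 and 10.79, a 2.19-fold difference. Of 33 lysosome and autophagy genes 31 were at level, 25 lay above 0, none was lower, and the median was 0.24. The 2 calls stand beside 1.90% called higher over all genes at level. NPC2, a lysosomal cholesterol carrier and the uncalled member with the highest level, had a log2 ratio of 0.53.

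**Figure D2:**
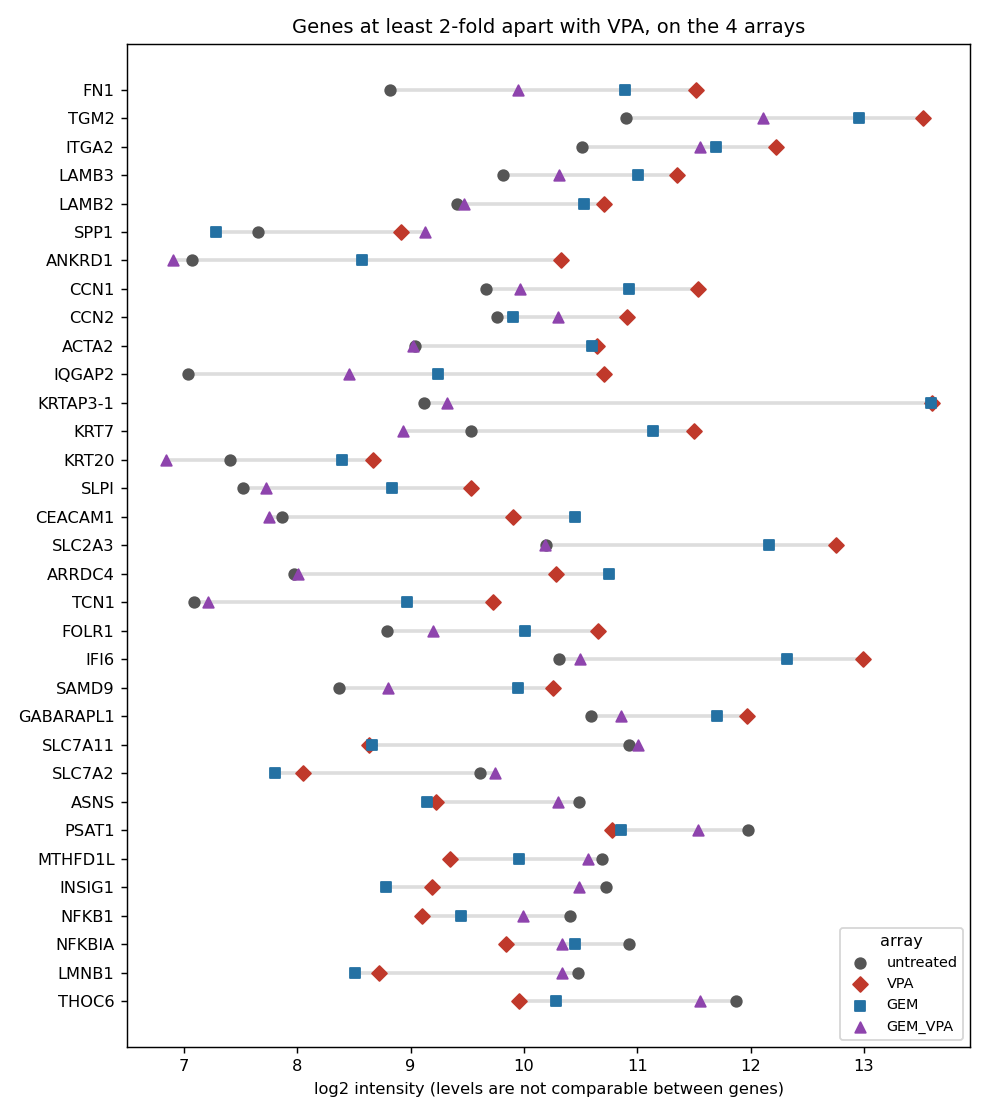
Log2 intensity on the 4 arrays (1 point per array, grey line from lowest to highest) of 33 genes at least 2-fold apart between the VPA and untreated arrays. KRTAP3-1 and SLC7A11 have nearly equal values on the VPA and GEM arrays, and SPP1 is lowest on the GEM array at 7.28.

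In the signalling lists, JUN, an AP-1 subunit, was 2.72-fold higher (9.36, 10.80, 10.65 and 9.58), and DUSP10, a phosphatase of the stress kinases, 2.07-fold (7.92, 8.97, 8.93 and 8.10). They were the only calls among 35 immediate early genes, of which 34 were at level and whose median was 0.15. Over all genes at level 1.90% were called higher. NFKB1, the p105 and p50 subunit, was 2.48-fold lower (10.41, 9.10, 9.44 and 9.99), and NFKBIA, the inhibitor that NF-κB itself induces, 2.12-fold lower (10.93, 9.84, 10.45 and 10.34). RELA and NFKB2 had log2 ratios of -0.06 and 0.70, so the 20 NF-κB genes did not share a direction (7 above 0, median -0.09). Of the 20, 19 were at level and only NFKB1 and NFKBIA were called, beside 2.09% called lower over all genes at level. HBEGF, a ligand of the EGF receptor, was 2.07-fold higher, IL1RN, the decoy ligand of the interleukin 1 receptor, 2.58-fold, and TNFSF18, a ligand of T cells, 2.08-fold lower. Of 41 TGF-β and BMP genes, 25 Notch genes, 52 Wnt genes and 41 apoptosis genes none was called, and their medians were 0.07, -0.01, 0.00 and 0.03. Of these only 31, 21, 36 and 31 were at level and could be called, and 4.00% of all genes at level were called.

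Chaperones were mixed. HSPB8, a small heat shock protein of aggregate clearance, was 2.64-fold higher (8.49, 9.89, 9.33 and 9.07). HSPE1, the lid of the mitochondrial chaperonin, was 2.57-fold lower (11.24, 9.88, 10.02 and 10.71), and HSPH1, a co-chaperone of HSP70, 2.08-fold lower (11.74, 10.69, 10.87 and 11.72). The 4 distinct rows shared by HSPA1 genes had log2 ratios of -1.07 to -0.89, and 2 of them were called lower. None of 20 genes of the unfolded protein response was called.

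The genes of the nuclear envelope and pore lay low as a group. LMNB1, lamin B1 of the nuclear lamina, measured 10.48, 8.72, 8.51 and 10.33, and was 3.37-fold lower. TMPO, which ties lamina to chromatin, was 2.93-fold lower (12.15, 10.60, 10.41 and 11.91), and LMNB2, lamin B2, 2.08-fold (11.79, 10.74, 10.88 and 11.68). The pore proteins NUP35, NUP107, NUP37 and NUP54 had log2 ratios of -1.24, -1.11, -1.09 and -1.02. Of 37 measured genes 35 lay below 0 and 7 were called lower, none higher, with a median of -0.55. NUP93, the uncalled member with the highest level, had a log2 ratio of -0.76. For 26 cell cycle genes used as a reference the median was -1.08, and 16 were lower.

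RNA export and splicing genes nearly all lay below 0. THOC6, a subunit of the mRNA export complex, measured 11.87, 9.95, 10.28 and 11.56, a 3.78-fold decrease. SRSF4, a splicing regulator, and HNRNPR, an RNA-binding protein, were 2.10-fold and 2.06-fold lower, and HNRNPA1L2, a retrocopy whose probes can read its parent gene, 2.05-fold. Of 40 measured genes 39 lay below 0 and 4 were called, with a median of -0.67. ALYREF, an export adaptor and the uncalled member with the highest level, had a log2 ratio of -0.85. Of 73 mitochondrial ribosomal proteins 68 lay below 0 (median -0.45) but only MRPL48 was called. Of 66 cytosolic ribosomal proteins 61 lay below 0 (median -0.25), and of 36 proteasome subunits 35 (median -0.28), with none called in either list. The median over all 11611 genes at level was -0.05.

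Outside the lists, the largest decreases were in histone genes, led by H2AC14 (-2.60), H2AC4 (-2.43), H3C12 (-2.28) and H3C1 (-2.05). The VPA value of H2AC14, 5.75, lay below the 25th percentile of that array (6.44). Smaller decreases outside the lists included EXOSC8, an RNA exosome subunit (-1.42), ANP32B, a histone chaperone (-1.46), and STAG1, a cohesin subunit (-1.43). They also included HMGB2, a chromatin protein of dividing cells (-1.53), and TFAP4, a MYC-induced factor (-1.52). MIR17HG, the host transcript of an oncogenic microRNA cluster, measured 8.46, 6.83, 6.96 and 7.84 and was 3.10-fold lower. It belonged to a list of 189 genes named for microRNAs, of which 34 were at level and it alone was called. Over all genes at level 2.09% were called lower. The arrays read the host RNA and not the mature microRNAs. Among the largest increases outside the lists, APOD, a lipocalin, was 4.92-fold higher (7.83, 10.13, 9.56 and 7.96), and MSX1, a homeobox factor, 3.55-fold (9.79, 11.62, 10.96 and 9.63). CHRNA6, a nicotinic receptor subunit, measured 5.86, 8.10, 7.25 and 6.40, and its untreated value lay below the 25th percentile of that array (6.42), where values are compressed. EDN1, the vasoconstrictor endothelin 1, was 3.31-fold higher (7.67, 9.40, 8.89 and 8.17) and CALCOCO1, a selective autophagy receptor, 3.50-fold (8.77, 10.58, 10.36 and 8.87).

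The zinc-dependent deacetylases, a family of which valproic acid inhibits some members, differed by less than 2-fold in their own transcripts. None of the 11 measured zinc-dependent deacetylases was called, 10 were at level, and their log2 ratios ran from -0.57 for HDAC2 (12.08, 11.51, 11.47 and 12.06) to 0.36 for HDAC11 (9.10, 9.46, 9.40 and 9.29). HDAC1 and HDAC3, the other main targets in class I, measured 12.64, 12.59, 12.44 and 12.74 and 11.97, 11.93, 11.77 and 11.99. None of the sirtuins (7), corepressor subunits (23), acetyltransferases and acetyl-lysine readers (17) or DNA methylation and Polycomb genes (18) was called. Over all genes at level only 4.00% were called, so lists this short can hold no call without differing from the rest. The readers and acetyltransferases had 15 of 17 below 0 and a median of -0.34, and the corepressors 19 of 23 below 0 and a median of -0.19, including KDM1A, a histone demethylase, at -0.84.

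Genes known as HDAC inhibitor responders were higher in part. Of 17 measured, 12 were at level, 4 were called higher and none lower, and the median was 0.45. Above 0 lay 11 and below 0 lay 6, the lowest of them KLF4 at -0.68, with HSPA2 at -0.41. The called genes were CCN2 and THBS1, given above, GSN, the actin-severing gelsolin (2.18-fold, 9.79, 10.92, 10.50 and 10.05), and CRIP2, a LIM protein (2.02-fold, 9.84, 10.85, 10.56 and 10.30). Their log2 ratios for GEM over untreated were 1.15 for THBS1, 0.71 for GSN, 0.72 for CRIP2 and 0.14 for CCN2. DHRS2, a dehydrogenase widely used as a marker of HDAC inhibition, measured 7.39, 7.22, 7.34 and 8.23, so it was highest on the GEM_VPA array. Its log2 ratio for VPA over untreated was -0.17, at levels under the limit on both of those arrays. H2BC21, a histone gene on the list, had a log2 ratio of -0.02, and TXNIP, the thioredoxin inhibitor, one of 0.18 at levels under the limit. H2BC12, another histone gene on the list, had one of 0.78. CTPS1, which makes CTP and is usually lowered by these agents, had a log2 ratio of -0.50.

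**Figure D3:**
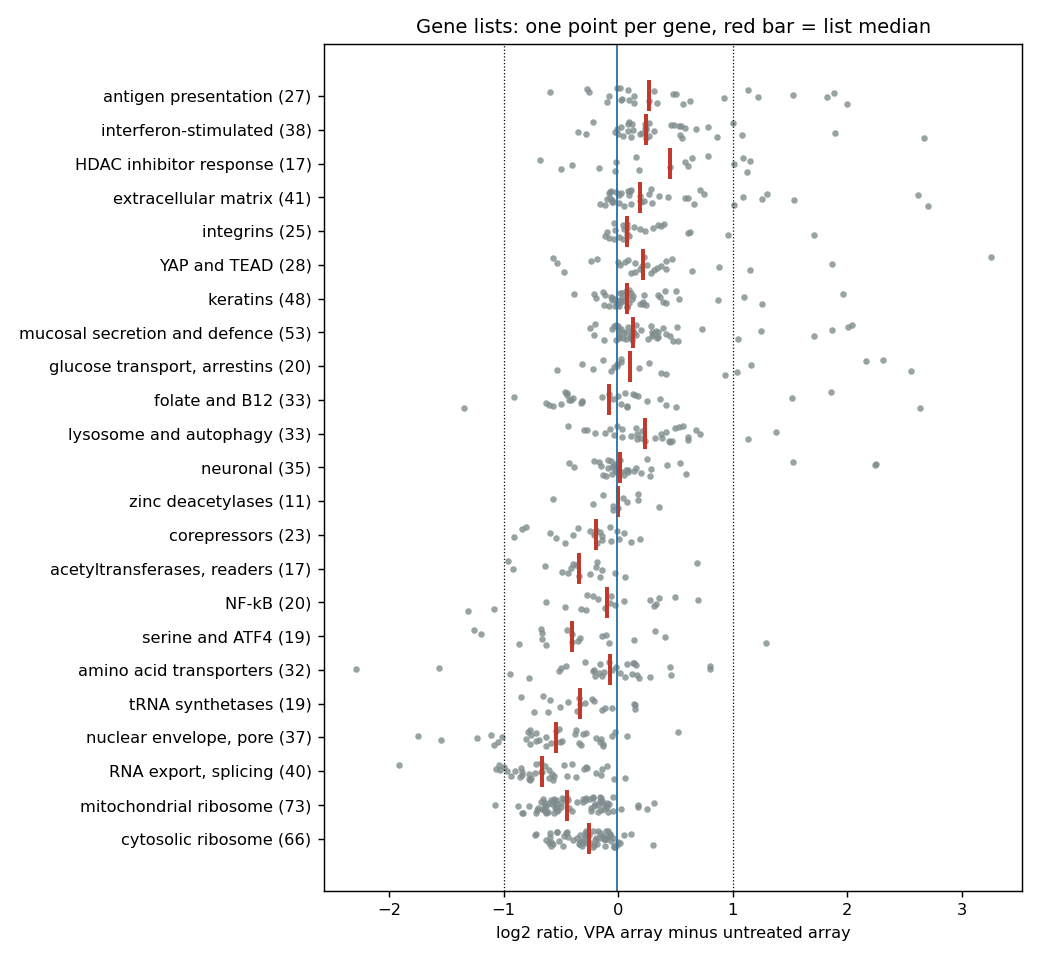
Log2 ratio of VPA over untreated for every measured gene of 23 lists (1 grey point per gene, number measured in brackets, red bar the list median, blue line the median of all 18377 genes, dotted lines the 2-fold limits). Antigen presentation, interferon, matrix and glucose transport genes spread to the right of the limit, the deacetylases stay within it, and RNA export genes lie left of 0 with a median of -0.67.

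The VPA ratio was then set beside the same agent's ratio in cells given GEM, from the GEM_VPA and GEM arrays. No array is shared by these pairs. Of the 221 genes higher with VPA, 192 (86.9%) had a GEM_VPA over GEM ratio below 0, and 84 of them were at least 2-fold lower there, in a pair where 1.78% of genes at level were called lower. Of the 243 lower genes 240 (98.8%) lay above 0, and 125 were at least 2-fold higher there, beside 3.60% called higher. The counts of 84 and 125 used the size of the ratio alone, while the shares beside them also required the level limit in that pair. The opposite sign was also the rule over all genes at level, for 73.6% of the 5187 above 0 with VPA and 74.6% of the 6424 below 0. With 1 array in each cell of the design, this difference was not tested. The same 4 arrays hold the pairing described at the start, and the part of array identity in these counts was not tested.

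A minority of genes kept their direction, and 29 of the 221 higher genes did so. SPP1 and TSPAN7, a membrane tetraspanin of neurons (8.56, 9.73, 7.86 and 9.40), were at least 2-fold higher in both pairs. CNTN1 had a ratio of 2.25 without GEM and 0.62 with it, and SNAI2 of 1.12 and 0.63. The others included HLA-DPB1, CD274, CCN2 and COL12A1, whose ratios with GEM were small, at 0.12, 0.25, 0.40 and 0.07. They also included, chosen after their values were seen, DPP4, a surface peptidase (8.58, 10.04, 9.18 and 9.35), MAP1B, a neuronal microtubule protein (8.58, 9.80, 9.07 and 9.28), and DCLK1, a microtubule kinase (9.86, 11.11, 10.11 and 10.66). Of the 243 lower genes 3 kept their direction, namely TNFSF18 (8.29, 7.23, 7.79 and 6.61), NFKBIA and MKX, a homeobox factor of tendon (10.19, 9.14, 9.55 and 9.46). TNFSF18 was at least 2-fold lower in both pairs, but its GEM level of 7.79 lay under the median of that array (7.91). It was therefore not called in the second pair, and it met the level limit in the first through the untreated array only. NFKBIA and MKX had GEM_VPA over GEM ratios of -0.12 and -0.09, so their signs there rest on small differences.

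**Figure D4:**
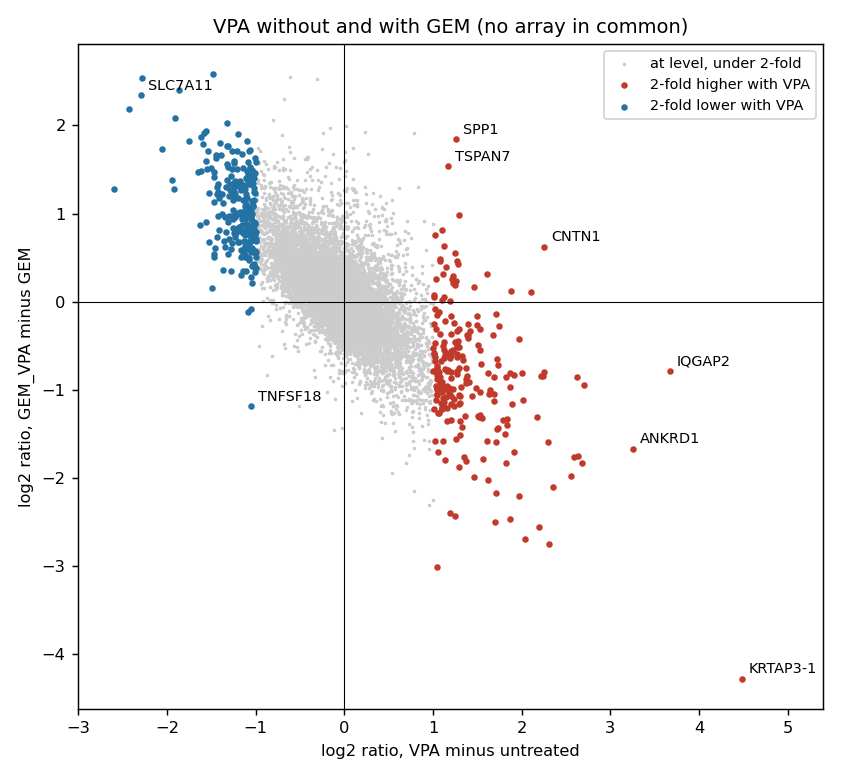
Log2 ratio of VPA over untreated (horizontal) against log2 ratio of GEM_VPA over GEM (vertical), 1 point per gene at level, with genes 2-fold higher (red) and 2-fold lower (blue) with VPA. The cloud runs from upper left to lower right, with KRTAP3-1 at its lower end, and SPP1 and TSPAN7 stand in the upper right.

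The VPA values of the called genes were also set beside the GEM array. Of the 221 higher genes 173 were above the GEM array and 17 at least 2-fold above it, beside 0.270% of all genes at level in VPA over GEM. Both ratios use the VPA array, on which the 221 genes had been picked as high, so such counts are partly built in and support nothing. These 17 included IQGAP2, ANKRD1, CNTN1, CD274, CCN2, HLA-DPB1, SPP1 and TSPAN7, with SERPINB7, a serpin of skin (5.97, 8.19, 7.00 and 6.16), TMPRSS11E, a membrane protease (6.28, 8.38, 6.58 and 6.69), SELENOP, the plasma selenium carrier (7.05, 9.02, 7.76 and 7.34), and PSG4, a pregnancy glycoprotein (7.33, 9.24, 8.06 and 7.24). Of the 243 lower genes 121 were below the GEM array and none was 2-fold below it.

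For some motifs promoter letters differed between the higher and lower genes, as a description of 391 of the 464 called genes that had a RefSeq promoter entry (184 higher, 207 lower). The AP-1 type motif TGANTCA was in 11.4% of the higher genes (95% Wilson interval 7.59 to 16.8) and 1.45% of the lower genes (0.494 to 4.17), beside 4.34% of the 9339 genes at level. The cell cycle homology motif TTTGAA was in 10.9% of the higher genes (7.15 to 16.2) and 23.7% of the lower ones (18.4 to 29.9), beside 9.20%. With only the 250 bases before the start, it was in 10.9% of the higher genes (7.15 to 16.2) and 15.9% of the lower ones (11.6 to 21.5). These intervals overlap, and the share of the genes at level was 8.05%. The TEAD type motif CATTCC was in 17.4% of the higher and 11.1% of the lower genes, beside 10.5%. The TATA box motif was in 11.96% and 11.59%, beside 5.63%. GATTGG was in 21.7% and 30.4%, beside 20.0%, and the GC box in 63.6% and 66.7%, beside 72.0%. TGACGT was in 12.5% and 15.9%, beside 11.7%, and CCAAT, which every GATTGG match contains, in 38.6% and 47.8%, beside 36.4%. Over all 27305 first promoters the shares of TGANTCA and CATTCC were 7.76% and 14.0%. Apart from TGANTCA and TTTGAA, the intervals of the higher and lower genes overlapped for every motif, as at 12.6 to 23.5 and 7.52 to 16.1 for CATTCC. The intervals cover counting error over genes only, and genes are not independent replicates.

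**Figure D5:**
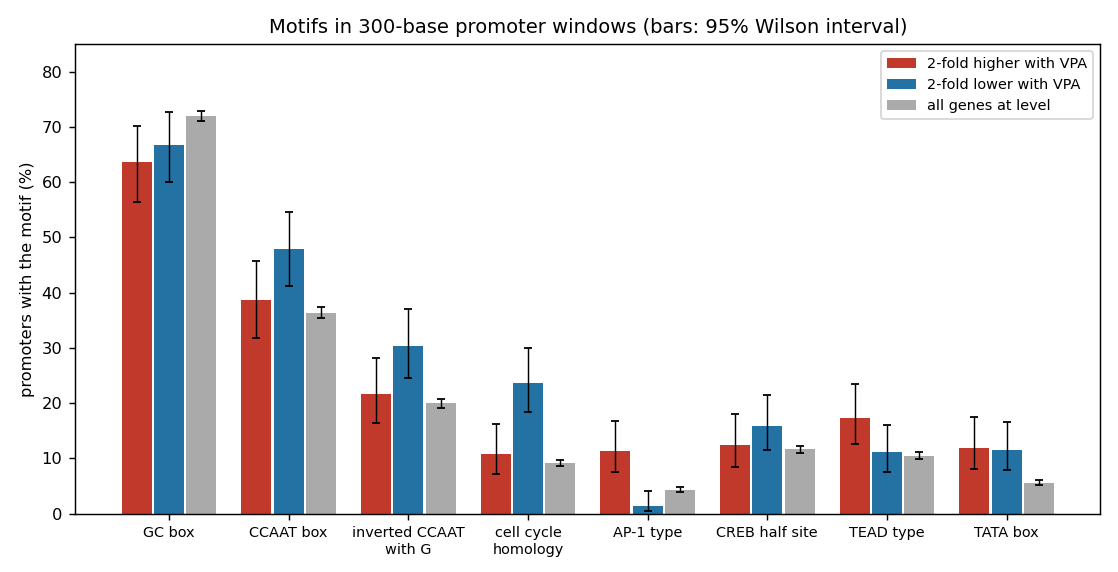
Percent of genes whose 300-base promoter window holds each motif on either strand, for genes 2-fold higher with VPA, genes 2-fold lower and all genes at level (bars from 0, whiskers the 95% Wilson interval). The AP-1 type motif stands at 11.4% in the higher and 1.45% in the lower genes, and the cell cycle homology motif at 10.9% and 23.7%.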

How the data were processed

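The deposited table held log2 intensities of 28869 rows on 4 arrays, which the authors normalized in GeneSpring GX 11.5 per the series text, and the submitters' processing notes name RMA. This step evens out probe distributions between arrays and compresses low values. No source used here gives the build behind the rows. Rows were named from the platform annotation: 19310 rows have 1 gene symbol, 1752 several and 7807 none, and a gene took the mean of its 1-symbol rows. Entrez identifiers matched the RefSeq gene table for 99.8% of the 1-symbol rows. Of 12 called genes with more than 1 row, all 12 had their rows on one side of 0. Rows of several genes are described only by family. Rows of a family with equal values on all 4 arrays, rounded as levels are printed, were counted once as 1 distinct row.

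With 1 array per group (VPA and untreated, with GEM and GEM_VPA beside them) sizes were computed and no test was run. A gene was called at a log2 ratio of at least 1 in size (the authors' ratio limits, 2 and 0.5) with its higher value at or above that array's median. The calling code was tested on simulated data. The 69 gene lists and the members were chosen with earlier results of these data known. Genes were named from the 40 largest increases and 40 largest decreases called, every called member of a list, all deacetylases, HDAC inhibitor responders and cell markers. Up to 3 further members of a list were taken by highest level. Not every gene of these groups is printed. Any other named gene is said to be chosen after its values were seen. Promoters came from RefSeq (GRCh38.p14, 250 bases before to 50 after the first start entry). Alternatives changed the scaling, the fold limit, the level filter, the rows taken, the list summary and the promoter window. Computation used Python 3.11.15, numpy 2.4.6, pandas 2.3.3, scipy 1.17.1 and matplotlib 3.10.9.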

Additional observations from a re-analysis of the deposited data

Results flagged for a closer look

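In 192 of the 221 genes higher with VPA, the GEM_VPA over GEM ratio was below 0, and in 240 of the 243 lower genes it was above 0. The opposite sign was also found in 73.6% of all genes at level that were above 0 with VPA and in 74.6% of those below 0. The difference between the pairs, and the part of array identity in it, was not tested.

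Rows outside the gene comparison also held calls. Of 1752 rows shared by several genes 1064 were at level, and 36 were higher and 20 lower with VPA (5.26% called). They include the HLA-DR, KRTAP2 and KRTAP4 rows described above and 2 rows shared by GSTT2 genes, glutathione transferases, which were both 2.85-fold higher (10.29 on the untreated array, 11.80 on the VPA array). Of 7807 rows with no gene name 1686 were at level, and 30 were higher and 20 lower (2.97% called).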

How the results depend on the processing

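No paired analysis was possible because each group has 1 array. A 1.5-fold limit gave 1973 calls (771 higher, 1202 lower) and a 3-fold limit 71 (56 higher, 15 lower). The level filter, row choice and both scalings kept the 3 counts within 1.5 times those reported. Centring on the array median moved the median of all genes to -0.06, with 190 higher and 301 lower, and quantile normalization again gave 256 and 182. Of 159 called genes named by the rule, 8 lost the call with centring, 14 with quantile normalization and 38 when both values had to be at the array median; none changed direction. No list median moved by 0.147 or more under scaling or row choice, while 10 of 69 did with the mean and 15 of 68 with members at level only. Of 16 motif shares 1 moved with the 250-base window, 0 with genes of 1 promoter entry and 13 with 3-fold genes. Among called genes, 8 (ACTBL2, CHRNA6, CLTRN, DAPP1, H2AC14, RASGRP3, SERPINB7 and TMPRSS11E) had their lower value below the 25th percentile of its array, where RMA compresses ratios.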
